A study of Homo sapiens with 54 samples.

Results

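The interleukin 1 family and its receptors were followed as 8 genes in the human cell line NCI-H460, which derives from a lung tumour of the large cell type. The genes are the ligands IL1A, IL1B, IL18 and IL33, the receptor antagonist IL1RN, the signalling receptor IL1R1, the decoy receptor IL1R2 and the accessory chain IL1RAP. The names were listed first, and the row of each gene was chosen by its mean level over all arrays, the highest among the rows of the value table that name it alone. Every one of the 8 genes had 1 such row, among 18417 genes with a usable row and 33297 rows in all. The names were listed with results of these data known, so the levels below are a description.

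Cells of 1 line were kept without serum and received no pretreatment, 5 uM nicotine, or cigarette smoke extract adjusted to hold 5 uM nicotine. After 2 h they received no therapy, 6 Gy of ionizing radiation, or 1 uM cisplatin, and RNA was taken 2 h or 24 h later. This gave 18 groups of 3 arrays, 54 arrays in all, each array hybridised with the RNA of 1 culture that the labels call a biological replicate. All groups share the serum-free medium, and each agent was given at 1 dose, so no dose response was measured. Levels are the deposited values, taken to be log2, and n is 3 arrays for each group unless another number is given. Each array reads a whole culture, so more cells with a transcript and more transcript per cell cannot be told apart.

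Interleukin 1 alpha and beta are inflammatory cytokines that bind IL1R1, which then recruits IL1RAP and signals through MYD88, IRAK kinases and TRAF6 to NF-kB and to MAP kinases. IL1RN occupies IL1R1 without signalling, and IL1R2 binds the ligands but lacks the signalling domain. Interleukin 1 alpha is active as a precursor and is released by damaged epithelial cells, whereas interleukin 1 beta and interleukin 18 need cleavage by caspase 1. Interleukin 33 is an alarmin kept in the nucleus of epithelial cells, and it signals through IL1RL1 together with IL1RAP. In airway epithelium these cytokines are known as early signals of injury. The arrays read transcripts, not cleavage, release or receptor signalling.

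The start regions of IL1A, IL1B and IL1RAP are shown because these are the 3 genes whose transcripts were higher with smoke extract at 2 h. Each run is the 250 bases before the start of transcription, 5′ to 3′ on the strand of the gene, as RefSeq gives it on build GRCh38.p14. Capitals mark matches, on either strand, to GCGTG, the core of the element bound by the aryl hydrocarbon receptor, to TGANTCA, an AP-1 site, or to a loose form of the NF-kB site, which is 3 G bases, any 5 bases and a pair of C bases. The IL1A run is chr2:112784494-112784743 on the minus strand, the IL1B run is chr2:112836780-112837029 on the minus strand, and the IL1RAP run is chr3:190513835-190514084 on the plus strand.
IL1A: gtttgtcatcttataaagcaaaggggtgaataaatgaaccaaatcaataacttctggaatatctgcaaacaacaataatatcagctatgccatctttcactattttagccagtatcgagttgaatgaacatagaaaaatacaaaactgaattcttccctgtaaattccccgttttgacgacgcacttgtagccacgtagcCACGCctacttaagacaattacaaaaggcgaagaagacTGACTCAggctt
IL1B: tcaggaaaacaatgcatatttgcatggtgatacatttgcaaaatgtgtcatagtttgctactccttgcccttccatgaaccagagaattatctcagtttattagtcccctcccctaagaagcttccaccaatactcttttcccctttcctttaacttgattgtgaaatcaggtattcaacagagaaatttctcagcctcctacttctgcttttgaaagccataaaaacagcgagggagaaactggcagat
IL1RAP: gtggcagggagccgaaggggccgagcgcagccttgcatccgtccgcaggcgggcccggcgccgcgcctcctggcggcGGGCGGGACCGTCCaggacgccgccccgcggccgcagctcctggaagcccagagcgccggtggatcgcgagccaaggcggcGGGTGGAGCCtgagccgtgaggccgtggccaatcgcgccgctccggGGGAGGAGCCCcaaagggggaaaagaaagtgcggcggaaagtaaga

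The IL1A run held the reverse complement of the aryl hydrocarbon receptor core from 50 to 46 bases before the start, and an AP-1 match, TGACTCA, from 12 to 6 bases before it. The IL1RAP run held 5 matches to the loose NF-kB site, of which 2 pairs overlap in part, and the IL1B run held none of the 3 motifs. Over the 35114 promoters of the table, 32.2% held the aryl hydrocarbon receptor core, 6.57% the AP-1 site and 54.4% the loose NF-kB site. A match of these letters is a description of the window and no evidence of binding. The table held 15 windows for 7 of the 8 genes, 2 of them for IL1A. The other IL1A window overlaps the one shown and belongs to another start. It held the aryl hydrocarbon receptor core from 143 to 139 bases before that start. Its AP-1 matches lay from 105 to 99 and from 55 to 49 bases before it. IL18 had no entry.

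Because no detection calls were used here, the level of genes that should be silent in this line was taken as a yardstick. Over 476 genes for olfactory receptors, bitter taste receptors, keratin-associated proteins and beta-defensins, the mean level ran from 3.07 at the 5th percentile to 6.76 at the 95th, with a median of 4.80. IL1R1, at a mean of 8.16 over all arrays, lay above that range in every group. IL1A had a median of 6.40 in the arrays without smoke extract, inside the range, and lay above it in every array with smoke extract. IL1RAP, with a median of 6.81 without smoke extract, lay at its upper edge. IL1B, IL1RN, IL1R2 and IL18 lay within it in untreated cells, and IL33 lay at its lower edge, at 3.04 at 2 h and 3.25 at 24 h. A fold change from such a level, that of IL1A included, is at best a lower bound. The place of IL1A and IL1RAP depends on the yardstick. With olfactory receptors alone the 95th percentile was 6.09, below the medians of both genes without smoke extract. The range of all 476 genes is used here. The epithelial keratins KRT8, KRT18, KRT19 and KRT7 were above the range, at 12.0, 11.3, 11.5 and 7.17, while the epithelial markers EPCAM (5.28) and CDH1 (5.07) were not, and 1 of these 6 markers passed with smoke extract at 2 h and 3 at 24 h. Of 9 leukocyte markers only CD68 (9.41) was above it, PTPRC, the pan-leukocyte marker, read 3.40, and 0 of the 9 passed the test with smoke extract at either time. Of 7 fibroblast markers, COL1A1, COL3A1 and PDGFRB were above it, and 3 of the list passed with smoke extract at each time. Over all genes, 9.28% passed at 2 h and 27.7% at 24 h. The mean of the fibroblast list ran from 5.91 to 6.20 over the 18 groups, its part in the results was not tested, and 0 of 5 endothelial markers were above the range.

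Some arrays stood apart before any comparison. In cells given smoke extract and radiation and harvested at 24 h, the mean of the silent genes in replicates 3 and 2 lay 0.32 and 0.27 from the mean of the other arrays of the group. Replicate 3 of cisplatin alone at 2 h (0.26) and replicate 2 of nicotine alone at 24 h (0.25) were the next farthest. Calls on the 8 genes that changed without these 4 arrays are given beside the results they touch.

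IL1A was the gene of the 8 with the widest range, 3.45 between its lowest and highest group mean. In the 36 arrays without smoke extract its level ran from 5.95 to 6.80, with a median of 6.40. The 9 arrays with smoke extract at 2 h ran from 7.73 to 8.66, with a median of 8.23. At 24 h the 9 arrays with smoke extract ran from 8.77 to 9.90, with a median of 9.10. The 3 sets of arrays did not overlap, whatever the therapy. The share of all genes that separate into these sets was not computed.

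**Figure D1:**
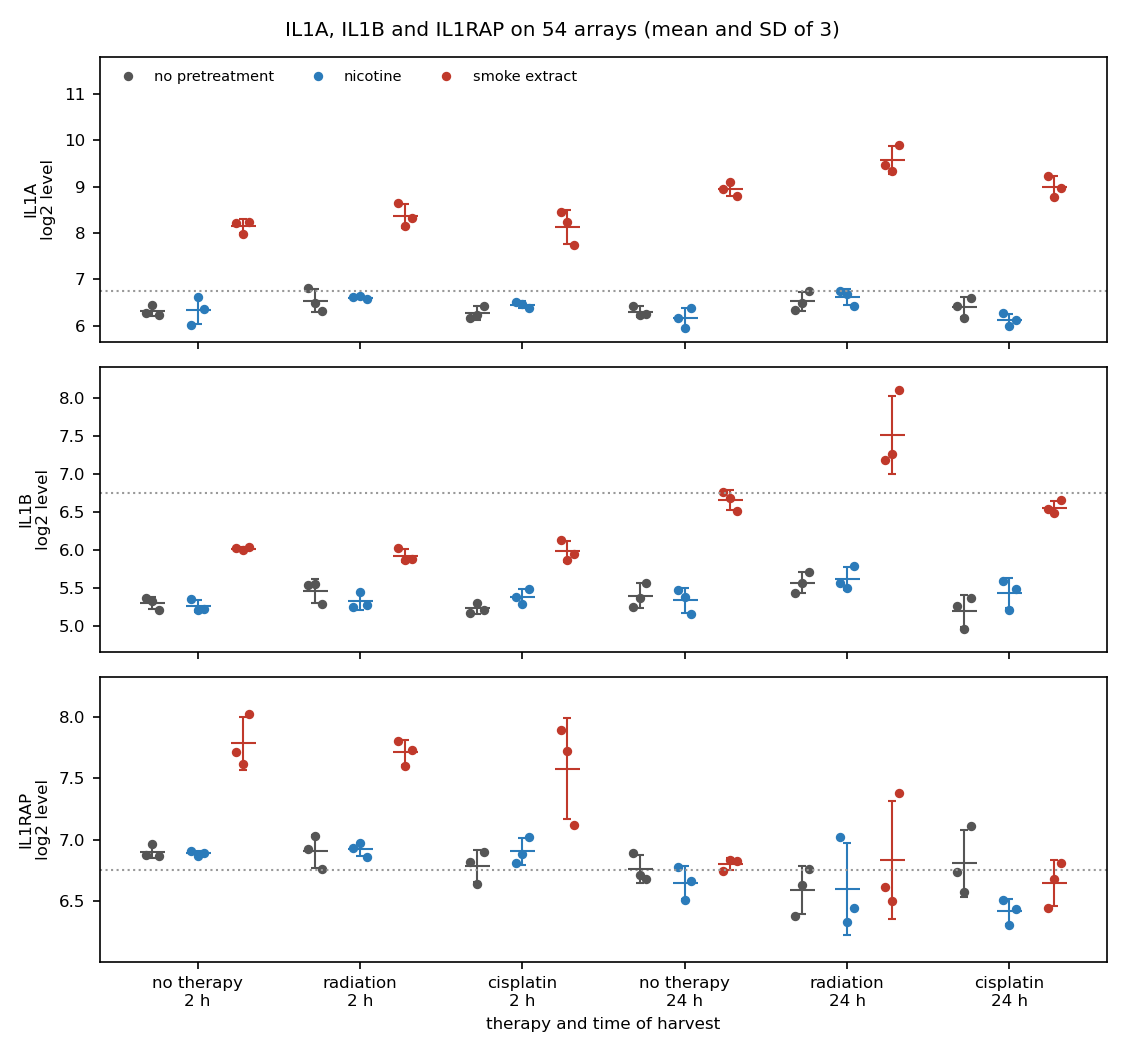
Log2 level of IL1A, IL1B and IL1RAP (vertical axes) on each of the 54 arrays, by therapy and time of harvest (horizontal axis), with points for arrays and bars for the mean and SD of 3 arrays. The dotted line is the 95th percentile of the silent genes, 6.76; the smoke extract arrays of IL1A run from 7.73 to 9.90 and lie above all others, those of IL1B separate more at 24 h than at 2 h, and those of IL1RAP stand apart at 2 h and not at 24 h.

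In untreated cells at 2 h the 3 arrays of IL1A read 6.27, 6.44 and 6.23, and with smoke extract alone they read 8.22, 7.98 and 8.24. Untreated cells at 24 h read 6.43, 6.22 and 6.24, and smoke extract alone read 8.95, 9.10 and 8.80. These single-agent groups had already been singled out for IL1A and IL1B and are given with no test. Averages over therapies, and differences taken from them, hold the same arrays, so for these genes they are described in the same way. The difference was 1.83 ± 0.16 (SE of the limma fit) at 2 h and 2.65 ± 0.16 at 24 h, which is 3.56-fold and 6.29-fold, and 3.77% and 16.1% of all genes passed there. Untreated cells at 24 h and 2 h differed by -0.01 (95% interval from -0.33 to 0.31), where 1.92% of all genes passed.

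The same question was then asked in irradiated and in cisplatin-treated cells, where smoke extract was compared with the therapy alone. With radiation at 2 h, IL1A went from 6.80, 6.49 and 6.31 to 8.66, 8.15 and 8.32, a rise of 1.84 ± 0.16 (limma, adjusted p = 2.97e-12). With cisplatin at 2 h it went from 6.15, 6.22 and 6.43 to 8.45, 8.23 and 7.73, a rise of 1.87 ± 0.16 (limma, adjusted p = 1.67e-12). In both therapies all 3 smoke extract arrays lay above all 3 arrays of the therapy alone. Among all genes, 2.66% passed this test with radiation and 5.46% with cisplatin, and 7.32% and 11.5% had smoke extract arrays that all lay above.

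At 24 h the rise of IL1A was larger in both therapies. With radiation its arrays went from 6.34, 6.49 and 6.74 to 9.47, 9.34 and 9.90, a rise of 3.05 ± 0.16 or 8.28-fold (limma, adjusted p = 5.2e-20; 8.23% of all genes passed and 5.55% did not overlap upward). With cisplatin they went from 6.42, 6.17 and 6.59 to 9.23, 8.77 and 8.98, a rise of 2.60 ± 0.16 or 6.05-fold (limma, adjusted p = 1.91e-17; 28.6% of all genes passed and 20.2% did not overlap upward). Averaged over the 3 therapies, the smoke extract effect was 1.85 ± 0.09 at 2 h and 2.77 ± 0.09 at 24 h. The effect at 24 h exceeded that at 2 h by 0.92 ± 0.13.

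IL1B, the cytokine cleaved by caspase 1, followed at lower levels of signal. In the 36 arrays without smoke extract it ran from 4.97 to 5.79, with a median of 5.37. With smoke extract the 9 arrays at 2 h ran from 5.87 to 6.14, with a median of 6.00, and the 9 arrays at 24 h from 6.48 to 8.11, with a median of 6.69. The sets did not overlap, though the 2 h arrays cleared the highest other array by little and stayed within the range of the silent genes. For this separation, too, no share of all genes was computed.

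Untreated cells read 5.37, 5.33 and 5.21 for IL1B at 2 h against 6.02, 6.00 and 6.04 with smoke extract alone, and 5.25, 5.38 and 5.57 at 24 h against 6.77, 6.69 and 6.52. At 2 h, smoke extract added to radiation took IL1B from 5.55, 5.56 and 5.29 to 6.03, 5.87 and 5.89, a difference of 0.47 ± 0.14 that did not pass (limma, adjusted p = 0.057), although the arrays did not overlap. It passed when only the compared groups were fitted (adjusted p = 0.00464) and without the 4 arrays that stood apart (adjusted p = 0.00617), with adjusted p-values from 0.00464 to 0.162 over all 8 alternatives. Added to cisplatin at 2 h it raised IL1B from 5.18, 5.31 and 5.22 to 6.14, 5.87 and 5.95, by 0.75 ± 0.14 (limma, adjusted p = 0.000153). The intervals of these effects overlap, and the effect with radiation minus that without therapy was -0.25 (95% interval from -0.64 to 0.15).

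At 24 h the arrays of radiation alone read 5.44, 5.57 and 5.72 for IL1B, and those of smoke extract with radiation 7.19, 7.26 and 8.11. This rise of 1.94 ± 0.14, or 3.85-fold, passed (limma, adjusted p = 2.78e-15). With cisplatin IL1B went from 5.27, 4.97 and 5.37 to 6.54, 6.48 and 6.65, a rise of 1.36 ± 0.14 (limma, adjusted p = 3.03e-10). The 3 arrays of smoke extract with radiation were the highest of all 54 for this gene, with replicate 3 apart from the others. Averaged over therapies the effect was 0.64 ± 0.08 at 2 h and 1.52 ± 0.08 at 24 h, and the difference between the times was 0.88 ± 0.11.

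**Figure D2:**
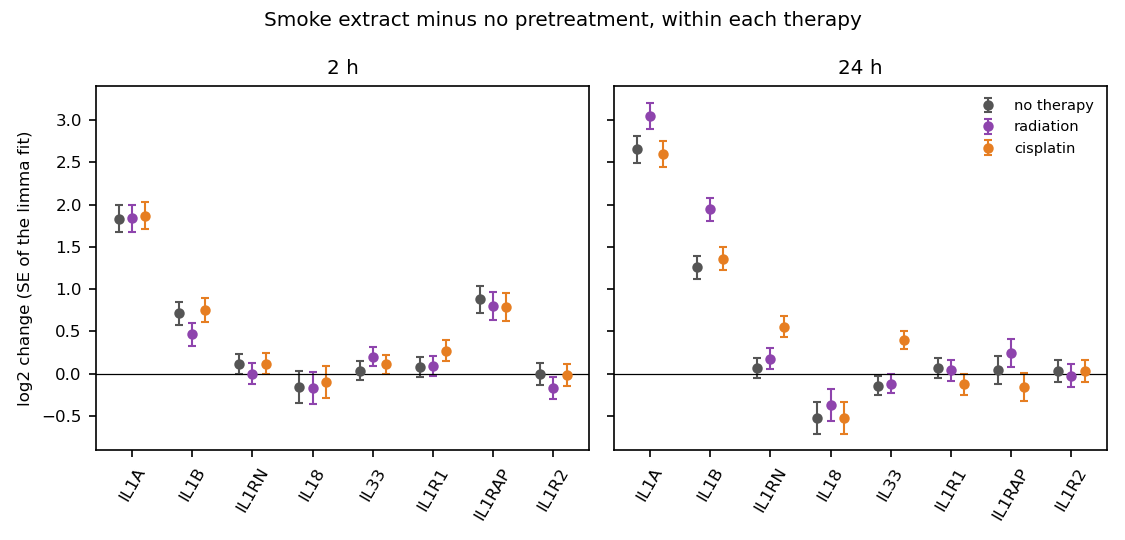
Log2 change with smoke extract against no pretreatment (vertical axis) for the 8 genes (horizontal axis) at 2 h and 24 h, within no therapy, radiation and cisplatin. Points are estimates over 3 arrays against 3 and bars are the SE of the limma fit; IL1A lies near 1.85 at 2 h and between 2.60 and 3.05 at 24 h, IL1RAP lies above 0 in the 2 h panel and near it at 24 h, and IL1B with radiation at 24 h (1.94) is above the other 2 therapies.

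IL1RAP, the chain that IL1R1 and IL1RL1 both need to signal, moved at the early time. Untreated cells at 2 h read 6.88, 6.96 and 6.87, and smoke extract alone read 7.71, 7.62 and 8.02, a rise of 0.88 ± 0.16 or 1.84-fold (limma, adjusted p = 0.000252; 6.9% of all genes did not overlap upward). With radiation the arrays went from 6.93, 7.03 and 6.77 to 7.80, 7.60 and 7.73 (0.80 ± 0.16, adjusted p = 0.00099 by limma). With cisplatin they went from 6.82, 6.64 and 6.90 to 7.89, 7.72 and 7.12 (0.79 ± 0.16, adjusted p = 0.000859 by limma). In each therapy the groups did not overlap, with replicate 3 of smoke extract and cisplatin, at 7.12, the closest to the rest.

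At 24 h the smoke extract arrays of IL1RAP lay among the others. Untreated cells read 6.89, 6.71 and 6.69 and smoke extract alone 6.75, 6.83 and 6.83. Over the 3 therapies the effect was 0.82 ± 0.09 at 2 h (limma, adjusted p = 2.74e-09) and 0.04 at 24 h (95% interval from -0.15 to 0.23, adjusted p = 0.768). The effect at 24 h minus that at 2 h was -0.78 ± 0.13 (limma, adjusted p = 4.06e-05), in a test that 9.12% of all genes passed. In the 24 h arrays with smoke extract and radiation, replicate 3 read 7.38 while the other arrays read 6.62 and 6.51.

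Counted over the family, 3 of 8 genes rose and 0 fell with smoke extract at 2 h, averaged over therapies, beside 9.28% of all genes that passed, 4.22% upward and 5.06% downward. The 3 genes were IL1A and IL1B, which had been singled out, and IL1RAP, and their 9 smoke extract arrays at 2 h lay above the 9 arrays without pretreatment, which held for 1.82% of all genes. At 24 h, 3 genes rose (IL1A, IL1B and IL1RN) and 1 fell (IL18), beside 27.7% of all genes that passed, 11.9% upward and 15.7% downward. For IL1A and IL1B the 9 smoke extract arrays at 24 h lay above the 9 without pretreatment, as for 1.24% of all genes. The median change over the 8 genes was 0.13 at 2 h and 0.04 at 24 h, against 0.00 and 0.03 over all genes.

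IL18 was the ligand that fell with smoke extract. Over the 36 arrays without smoke extract it ran from 3.72 to 4.86, with a median of 4.28, and over the 9 smoke extract arrays at 24 h from 3.48 to 4.21, with a median of 3.94, so the sets overlap. The mean change at 24 h was -0.47 ± 0.11 (limma, adjusted p = 0.000857), and at 2 h it was -0.14 (95% interval from -0.36 to 0.08). The whole of this lies inside the range of the silent genes, of which 24.2% had a lower mean than IL18. In cisplatin-treated cells at 24 h the mean was 3.80 with smoke extract, 3.82 with nicotine and 4.32 with cisplatin alone. With cisplatin at 24 h the change from smoke extract, -0.52 ± 0.19 (limma, adjusted p = 0.0359), went to -0.12 (adjusted p = 0.736) with the silent-gene mean as a covariate, and adjusted p-values over the 8 alternatives ran from 0.0168 to 0.736. Without therapy the arrays at 24 h went from 4.41, 4.40 and 4.38 to 3.48, 4.20 and 3.94, a difference that did not pass (-0.52 ± 0.19, limma, adjusted p = 0.0527). It passed in 3 of 8 alternatives, which were the silent-gene mean as a covariate (-0.50, adjusted p = 0.00764), only the compared groups (adjusted p = 0.0283) and omission of the 4 arrays that stood apart (adjusted p = 0.0257).

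IL33 had the lowest signal, from 2.77 to 3.52 over all 54 arrays, near the bottom of the range of the silent genes. Its one difference past the threshold was smoke extract added to cisplatin at 24 h, from 3.04, 3.05 and 2.77 to 3.52, 3.38 and 3.15 (0.40 ± 0.11, limma, adjusted p = 0.00816). That call was lost with the silent-gene mean as a covariate (0.29, adjusted p = 0.148) and with only the compared groups fitted (adjusted p = 0.0892).

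IL1RN, the antagonist that competes with both interleukin 1 ligands for IL1R1, changed with pretreatment in cisplatin-treated cells at 24 h. Cisplatin alone read 4.59, 5.17 and 4.55, nicotine with cisplatin 5.28, 5.29 and 5.42, and smoke extract with cisplatin 5.35, 5.21 and 5.42. Both pretreatments lay 0.56 ± 0.12 higher (limma, adjusted p = 0.00695 for nicotine, where 17.8% of all genes passed, and 0.00111 for smoke extract). The mean of the silent genes was higher in the same arrays, 5.00 and 5.03 against 4.79. With that mean as a covariate the differences were 0.34 for nicotine (adjusted p = 0.124) and 0.31 for smoke extract (adjusted p = 0.0587), and neither passed. Only the compared groups fitted also ended the nicotine call (adjusted p = 0.0567), as did leaving out replicate 3 of cisplatin alone (0.45, adjusted p = 0.102).

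Averaged over therapies at 24 h, IL1RN was 0.27 ± 0.07 higher with smoke extract (limma, adjusted p = 0.00368) and 0.24 ± 0.07 higher with nicotine (limma, adjusted p = 0.0361). The nicotine call was lost with only the compared groups (adjusted p = 0.111), with quantile normalization (adjusted p = 0.07) and with the silent-gene mean as a covariate (0.16, adjusted p = 0.121), and it held in 8 of 18 omissions of a single array. Without therapy the 24 h arrays read 4.92, 4.97 and 4.92 in untreated cells, 4.99, 5.00 and 4.83 with nicotine and 4.99, 4.90 and 5.11 with smoke extract. These groups overlap, with differences of 0.01 (95% interval from -0.25 to 0.26) and 0.07 (from -0.18 to 0.32).

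IL1R1, the receptor that signals, had the narrowest range of the 8 genes, 0.30 between its lowest and highest group mean. Its arrays ran from 7.74 to 8.48. With smoke extract its mean difference was 0.15 at 2 h (95% interval from 0.00 to 0.29, limma adjusted p = 0.256) and -0.01 at 24 h (from -0.15 to 0.14). The 2 h difference passed with the silent-gene mean as a covariate (0.19, adjusted p = 0.01). IL1R2, the decoy, ran from 5.18 to 6.06 and passed the test in 0 of 42 comparisons. Its mean difference with smoke extract was -0.06 at 2 h (from -0.22 to 0.09) and 0.01 at 24 h (from -0.14 to 0.17).

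**Figure D3:**
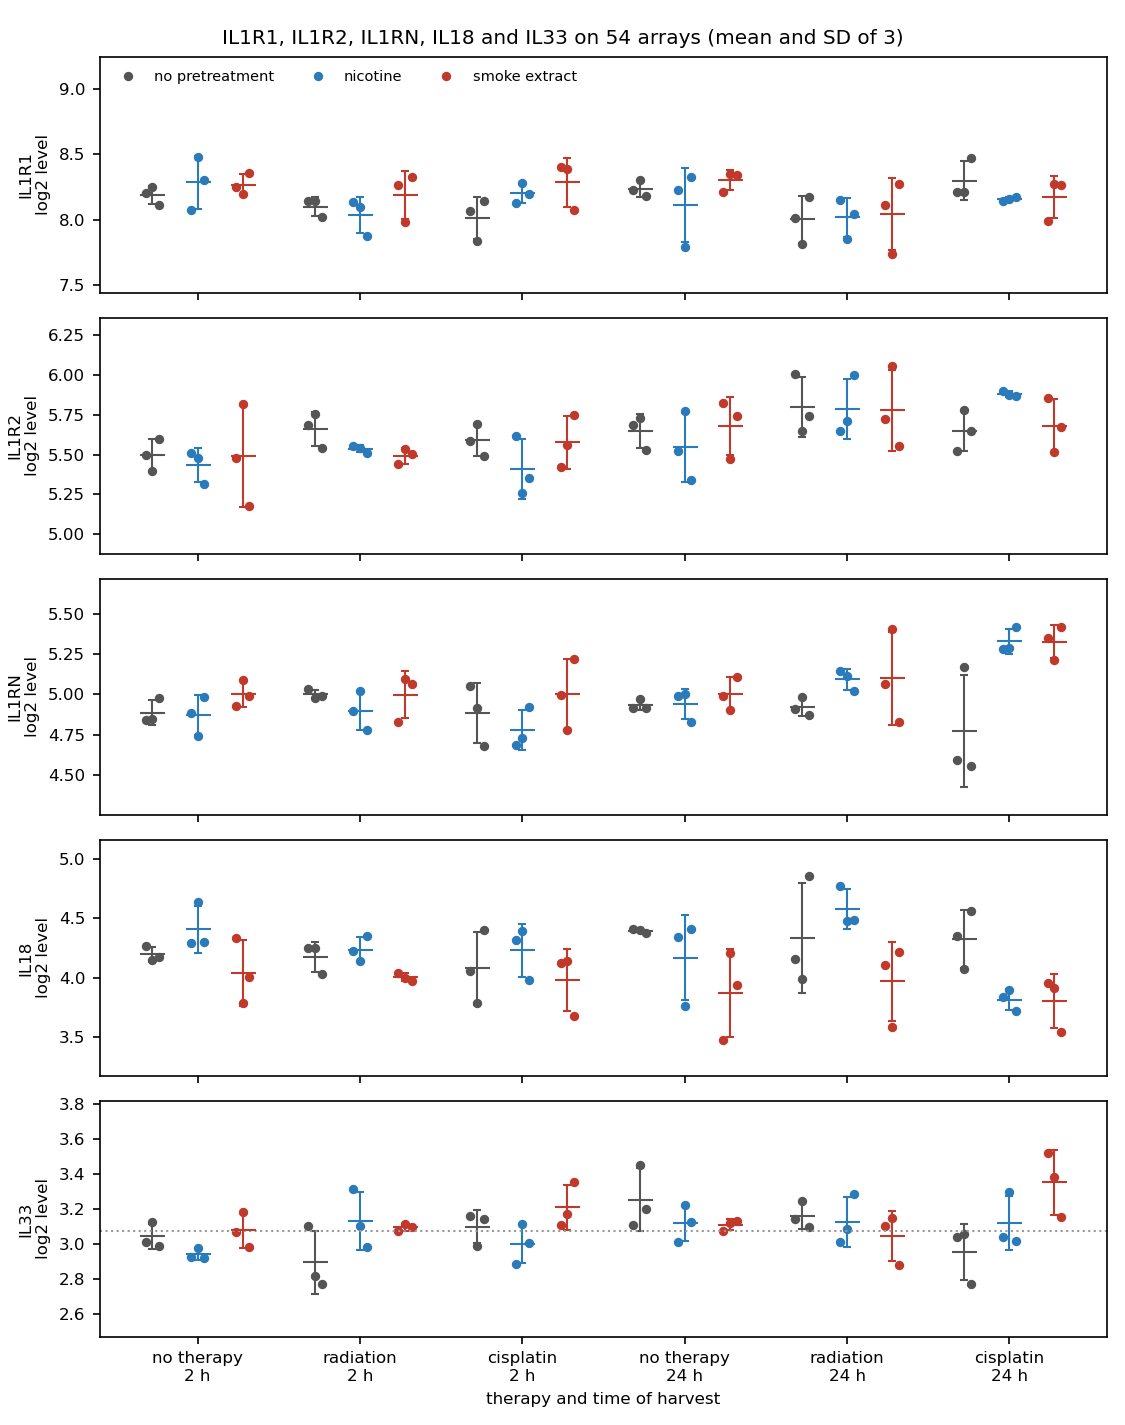
Log2 level of IL1R1, IL1R2, IL1RN, IL18 and IL33 (vertical axes) on each of the 54 arrays, by therapy and time of harvest (horizontal axis), with points for arrays and bars for the mean and SD of 3 arrays. The dotted line in the IL33 panel is the 5th percentile of the silent genes, 3.07; the pretreatments overlap in most panels, and cisplatin at 24 h separates IL1RN with either pretreatment from cisplatin alone.

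Nicotine was compared with smoke extract because both held the same amount of nicotine. With nicotine, 0 of 8 genes passed at 2 h averaged over therapies, where 0% of all genes passed, and 1 of 8, IL1RN, passed at 24 h, where 5.21% passed. For IL1A the mean nicotine difference was 0.09 at 2 h (95% interval from -0.10 to 0.27) and -0.10 at 24 h (from -0.29 to 0.08). For IL1B it was -0.01 (from -0.17 to 0.16) and 0.08 (from -0.09 to 0.24). Smoke extract exceeded nicotine for IL1A by 1.76 ± 0.09 at 2 h and 2.87 ± 0.09 at 24 h. IL1B exceeded it by 0.65 ± 0.08 and 1.45 ± 0.08, and IL1RAP by 0.79 ± 0.09 at 2 h (limma, adjusted p = 9.51e-09), where 10.9% of all genes passed. At 24 h, IL1RAP with smoke extract differed from nicotine by 0.21 (from 0.01 to 0.40, limma adjusted p = 0.132), where 20.6% of all genes passed. It passed with the silent-gene mean as a covariate (0.21, adjusted p = 0.0162). IL18 was lower with smoke extract than with nicotine at 24 h and passed with all arrays. That call was lost with all rows tested (-0.31, limma, adjusted p = 0.0663). It was also lost with only the compared groups (adjusted p = 0.0784), quantile normalization (adjusted p = 0.0642) and several single omitted arrays. Without the 4 arrays that stood apart, 3 further differences passed. They were IL18 with smoke extract against nicotine at 2 h (-0.28, adjusted p = 0.0476, against 0.0951 with all arrays), and, with nicotine added to cisplatin at 24 h, IL18 (-0.51, adjusted p = 0.0256, against 0.0529) and IL1RAP (-0.39, adjusted p = 0.0423, against 0.0815).

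Radiation was then compared with no therapy. Without pretreatment, 0 of 8 genes passed with radiation at 24 h, where 21% of all genes did. The comparisons of radiation and of smoke extract share their untreated arrays. For IL1A and IL1B, radiation comparisons other than those within nicotine hold groups that had been singled out. Their p-values are not independent of that choice. Averaged over the 3 pretreatments, 0 of 8 genes passed at 2 h (1.35% of all genes did), and at 24 h IL1A and IL1B rose and IL1R1 fell, beside 32.5% of all genes that passed. IL1A rose by 0.43 ± 0.09 at 24 h (limma, adjusted p = 0.00016), from a mean of 7.14 to 7.57, and IL1B by 0.44 ± 0.08 (limma, adjusted p = 1.7e-05), from 5.80 to 6.24. IL1R1 fell by 0.20 ± 0.07 (limma, adjusted p = 0.0281), a call that was lost with only the compared groups fitted (adjusted p = 0.0883) or with the silent-gene mean as a covariate (-0.13, adjusted p = 0.0564). With that covariate IL18 passed (0.25, limma, adjusted p = 0.0135), also within nicotine (0.50, adjusted p = 0.00708). IL1R2 passed without replicate 2 of nicotine alone (0.20, limma, adjusted p = 0.038). It also passed without replicate 3 of smoke extract and radiation (0.20, adjusted p = 0.0365).

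**Figure D4:**
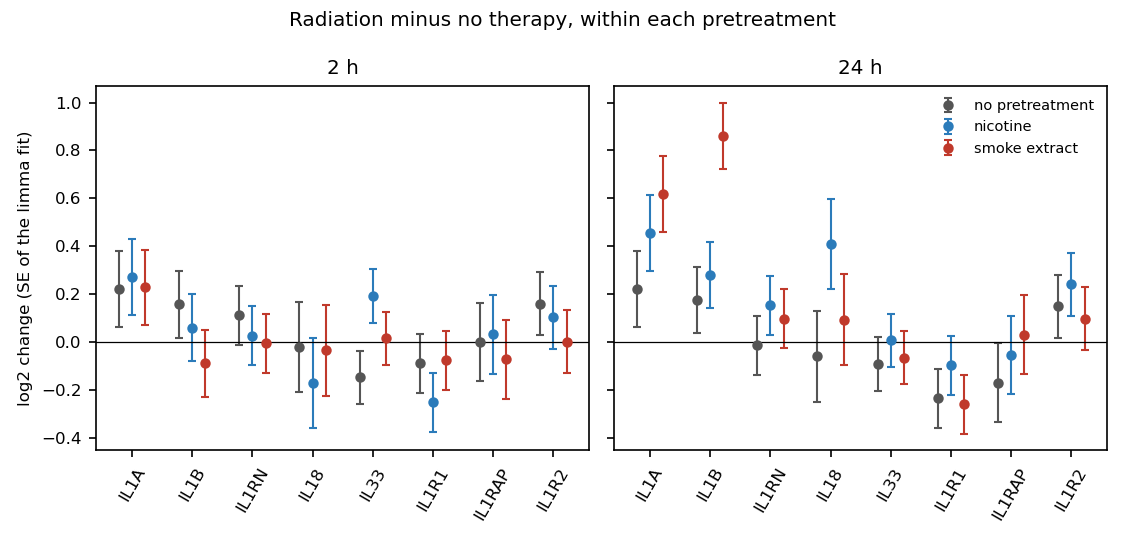
Log2 change with radiation against no therapy (vertical axis) for the 8 genes (horizontal axis) at 2 h and 24 h, within no pretreatment, nicotine and smoke extract. Points are estimates over 3 arrays against 3 and bars are the SE of the limma fit; at 24 h the points of IL1A run from 0.22 to 0.62 and those of IL1B from 0.18 to 0.86, highest with smoke extract in both.

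By pretreatment, the 24 h rise of IL1A with radiation was 0.62 ± 0.16 in smoke extract (limma, adjusted p = 0.00414; 14.2% of all genes passed), from 8.95, 9.10 and 8.80 to 9.47, 9.34 and 9.90. Without the 4 arrays that stood apart it was 0.52 and did not pass (adjusted p = 0.157), nor did it without replicate 3 of smoke extract and radiation alone (0.45, adjusted p = 0.0595). In nicotine the arrays went from 6.17, 5.95 and 6.38 to 6.76, 6.68 and 6.43, a rise of 0.45 ± 0.16 (limma, adjusted p = 0.0419; 15.3% of all genes passed) that was lost without those 4 arrays (0.35, adjusted p = 0.174). Without pretreatment the difference was 0.22 (95% interval from -0.10 to 0.54), where 21% of all genes passed. At 2 h the mean radiation difference of IL1A was 0.24 ± 0.09 and did not pass (limma, adjusted p = 0.304), but it did with the silent-gene mean as a covariate (0.27, adjusted p = 0.0266). Except within nicotine, these comparisons hold groups that had been singled out for IL1A, so their p-values are not independent of that choice.

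For IL1B the 24 h rise with radiation was 0.86 ± 0.14 in smoke extract (limma, adjusted p = 5.56e-06), from 6.77, 6.69 and 6.52 to 7.19, 7.26 and 8.11. Without replicate 3 of smoke extract and radiation it was 0.57 (adjusted p = 0.000568), and without the 4 arrays that stood apart 0.53 (adjusted p = 0.0258). In nicotine the difference was 0.28 ± 0.14 (limma, adjusted p = 0.191) and without pretreatment 0.18 (from -0.11 to 0.46). The mean radiation effect on IL1B was 0.40 ± 0.11 larger at 24 h than at 2 h (limma, adjusted p = 0.00701), in a test that 23.4% of all genes passed. Except within nicotine, these comparisons hold groups that had been singled out for IL1B. Their p-values are not independent of that choice.

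Whether the smoke extract effect depended on the therapy was tested as an interaction. At 24 h, IL1B had a smoke extract effect 0.69 ± 0.20 larger with radiation than without therapy (limma, adjusted p = 0.045), beside 2.57% of all genes that passed. The effect without therapy in this difference is the one that had been singled out, so the p-value is not independent of that choice. Without replicate 3 of smoke extract and radiation the difference was 0.39 (adjusted p = 0.203), and without the 4 arrays that stood apart 0.35 (adjusted p = 0.485). The same difference was 0.40 for IL1A (95% interval from -0.06 to 0.85, limma adjusted p = 0.38). With cisplatin in place of radiation, 0 of 8 genes passed at 24 h (0.152% of all genes did), and the differences were -0.05 for IL1A and 0.10 for IL1B. IL33 passed there without the 4 arrays that stood apart (0.54, adjusted p = 0.0442, against 0.0864 with all arrays). At 2 h the interaction passed for 0 of 8 genes and 0% of all genes with either therapy.

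Cisplatin moved 0 of the 8 genes past the threshold when averaged over pretreatments, at 2 h or at 24 h, where 0.0109% and 5.03% of all genes passed. For IL1A the mean cisplatin difference was 0.02 at 2 h (95% interval from -0.16 to 0.21) and 0.03 at 24 h (from -0.15 to 0.22). For IL1B it was 0.00 (from -0.16 to 0.17) and -0.07 (from -0.23 to 0.09). For IL1RN at 24 h it was 0.18 ± 0.07 (limma, adjusted p = 0.13).

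Placed in order, the 18 groups of IL1A began with smoke extract and radiation at 24 h (9.57), then smoke extract with cisplatin (8.99) and alone (8.95) at 24 h, and then the 3 smoke extract groups at 2 h from 8.38 to 8.14. Of the 17 neighbouring pairs in that order, 14 overlapped in their arrays. The 3 that did not were the steps below the first group, below the 24 h smoke extract groups and below the 2 h smoke extract groups, the last of 1.52. IL1B had the same 3 gaps, of 0.86, 0.54 and 0.31. IL1RAP had 1 gap, of 0.66, below its 3 smoke extract groups at 2 h, and the other genes had none. The share of all genes with such gaps was not computed, so the gaps only describe the order of groups for these genes.

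Over the 18 group means IL1A and IL1B had a Pearson correlation of 0.939, while IL1A and IL1RAP had 0.409. The groups share the smoke extract, so these values describe the pattern of the groups only. Among 7549 genes whose group means spanned at least 0.5, those most like IL1A were CYP1A1 (0.979), a monooxygenase induced through the aryl hydrocarbon receptor, MEGF6 (0.974), LIF (0.974), a cytokine of the interleukin 6 family, ATP1B1 (0.973), a sodium pump subunit, and FGF13 (0.972). For IL1B they were OSBP2 (0.985), DNAH5 (0.981), a dynein of motile cilia, LGI1 (0.971), STK32B (0.964) and DUSP18 (0.963). For IL1RAP they were ANKRD13C (0.977), CMTM3 (0.976), EHD4 (0.967), ASB6 (0.954) and SINHCAF (0.953). CYP1A1 was 3.34 higher with smoke extract at 2 h and 4.19 at 24 h, and its Spearman correlation with IL1A was 0.503. CMTM3 was 1.24 higher at 2 h and 0.05 at 24 h.

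IL1A and IL1B lie next to each other in the order of genes that RefSeq gives for chromosome 2, between CKAP2L and IL37, in a run that goes on with IL36G, IL36A, IL36B, IL36RN, IL1F10, IL1RN and PSD4. With smoke extract at 24 h, averaged over therapies, 27.7% of all genes passed. CKAP2L, on the other side of IL1A, fell by 0.45 ± 0.07 (limma, adjusted p = 4.81e-07), and IL37, on the other side of IL1B, differed by 0.07 (adjusted p = 0.412). Beside IL1RN, PSD4 rose by 0.13 ± 0.05 (limma, adjusted p = 0.0497) and IL1F10 differed by -0.01 (adjusted p = 0.961). IL1R2 and IL1R1 are also neighbours on chromosome 2, between MAP4K4 and IL1RL2. In the same comparison MAP4K4 fell by 0.20 ± 0.06 (limma, adjusted p = 0.00771) and IL1RL2 differed by 0.06 (adjusted p = 0.588).

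The other members of the family, 14 ligands and receptors that were not among the 8 genes, were also tested. With smoke extract averaged over therapies, 0 of 14 passed at 2 h, where 9.28% of all genes did. At 24 h IL18R1, a chain of the interleukin 18 receptor, fell by 0.25 ± 0.08 (limma, adjusted p = 0.0161). It was the only 1 of the 14 to pass, where 27.7% of all genes did. That call was lost with the silent-gene mean as a covariate. Named after their values were seen, IL1RL1, the receptor of interleukin 33, ran from 4.07 to 4.71 over all arrays, within the range of the silent genes, and SIGIRR, an inhibitory member of the receptor family, from 6.60 to 7.26.

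Of the genes that carry the signal from the receptor, 17 of 19 were measured. With smoke extract at 2 h 4 rose and 0 fell, beside 9.28% of all genes that passed: TRAF6 by 0.23 ± 0.07, IKBKB by 0.20 ± 0.05, IRAK2 by 0.18 ± 0.05 and RELA by 0.15 ± 0.05. At 24 h 4 rose and 1 fell, a total that ran from 3 to 8 over the alternatives and that stands beside 27.7% of all genes. IKBKG, the regulatory subunit of the IkB kinase, fell by 0.44 ± 0.10, and NFKBIA, the inhibitor that NF-kB itself induces, rose by 0.33 ± 0.09. The changes of this list are averages over therapies. Without therapy, 0 of the 17 passed at 2 h, where 3.77% of all genes did. Without therapy at 24 h IKBKG passed (-0.85, limma, adjusted p = 0.00034) and NFKBIA did not (0.23, adjusted p = 0.379). MYD88, the adaptor of the receptor, also named after its values were seen, was measured at 8.71 to 9.36 over all arrays and did not pass at either time. The median change of this list was -0.03 at 2 h and 0.07 at 24 h, against 0.00 and 0.03 over all genes.

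Of the genes for processing and release, 13 of 14 were measured, and 0 passed with smoke extract at 2 h. At 24 h 3 rose and 1 fell, beside the same 27.7% of all genes. CAPN1, a calpain subunit of the group that cleaves the interleukin 1 alpha precursor, rose by 0.23 ± 0.05, CASP4 by 0.23 ± 0.06 and CASP1, which cleaves the interleukin 1 beta precursor, by 0.20 ± 0.08. CASP1 ran from 2.72 to 3.77 over all arrays, at the bottom of the range of the silent genes. HAX1, a binding partner of interleukin 1 alpha, fell by 0.29 ± 0.05. These changes are averages over therapies. Without therapy at 24 h CAPN1 passed (0.44, limma, adjusted p = 0.000879). CASP4 (0.22, adjusted p = 0.195), CASP1 (0.01, adjusted p = 0.974) and HAX1 (-0.20, adjusted p = 0.127) did not. With radiation at 24 h 4 of the 13 rose, beside 32.5% of all genes that passed, among them GSDME, a pore-forming gasdermin, by 0.40 ± 0.06.

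Genes that interleukin 1 is known to induce did not move 1 way. Of 26 listed, 24 were measured, and with smoke extract at 2 h 3 rose and 6 fell, beside 9.28% of all genes that passed. MMP1, an interstitial collagenase, rose by 1.23 ± 0.07 from 7.00 to 8.23, and IER3, an early response gene, by 1.00 ± 0.08 from 9.46 to 10.5. IL6, a cytokine, fell by 1.34 ± 0.12 from 9.14 to 7.80, and PTGS2, the inducible cyclooxygenase, by 0.74 ± 0.09 from 6.56 to 5.82. The median of the list was -0.01, against 0.00 over all genes.

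Averaged over therapies at 24 h, 9 of the 24 rose and 4 fell with smoke extract, beside 27.7% of all genes that passed. The median was 0.16 against 0.03 over all genes. Without therapy 5 rose and 2 fell (median 0.05, 16.1% of all genes passed). With radiation 4 rose and 2 fell (0.03, 8.23%), and with cisplatin 12 rose and 2 fell (0.38, 28.6%). Smoke extract also raised the silent-gene mean by 0.24 with cisplatin, against 0.01 without therapy and 0.01 with radiation. The part of this shift in the counts was not tested. Averaged over therapies, MMP1 was 4.33 ± 0.07 higher, from 6.13 to 10.5 (limma, adjusted p = 6.75e-40), the largest change of the list. TNFAIP3, the A20 inhibitor of NF-kB signalling, fell by 1.01 ± 0.07 (limma, adjusted p = 3.56e-16), from 10.2 to 9.19. IER3 rose by 0.76 ± 0.08 and PTGS2 fell by 0.57 ± 0.09. The chemokine genes CXCL8 and CXCL1 were named after their values were seen. Averaged over therapies, they fell by 0.40 ± 0.08 and 0.48 ± 0.08 at 2 h. At 24 h the averages rose by 0.47 ± 0.08 and 0.30 ± 0.08. Without therapy at 24 h neither passed (0.09 for CXCL8, limma, adjusted p = 0.745, and 0.30 for CXCL1, adjusted p = 0.141).

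**Figure D5:**
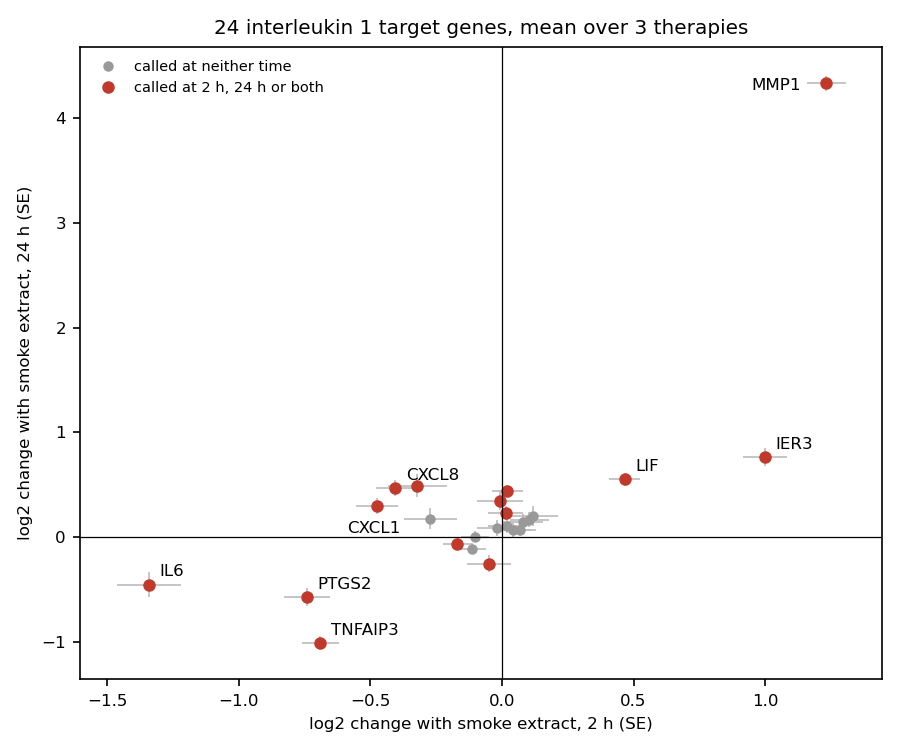
Log2 change with smoke extract, averaged over 3 therapies, at 2 h (horizontal axis) and 24 h (vertical axis) for the 24 measured genes that interleukin 1 is known to induce. Bars are the SE of the limma fit and red points passed the test at 1 or both times; MMP1 (1.23 and 4.33) lies far above the rest, IL6, PTGS2 and TNFAIP3 lie low at both times, and CXCL1 and CXCL8 are lower at 2 h and higher at 24 h.

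With radiation at 24 h the same list had 3 genes that rose and 1 that fell, beside 32.5% of all genes that passed. TNFAIP3 rose by 0.40 ± 0.07, VCAM1 by 0.17 ± 0.06 and TNFAIP2 by 0.15 ± 0.06, and CXCL8 fell by 0.27 ± 0.08. With cisplatin at 24 h 0 rose and 4 fell, beside 5.03% of all genes that passed, led by CXCL8 (by 0.94 ± 0.08), IL6 (by 0.57 ± 0.12) and CXCL1 (by 0.49 ± 0.08), while 0 of the 8 family genes passed there. With nicotine 0 of the 24 passed at either time.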

How the data were processed

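Whole-transcript RNA of 54 NCI-H460 cultures was measured on 1-colour Affymetrix arrays. The log2 values deposited by the authors came from Affymetrix Power Tools 1.15.0, per the submitters' processing notes. The sources used here do not say how probes were summarized or arrays normalized. The log base was inferred from the values, which lie between 0.89 and 13.81, each array having a median between 6.43 and 6.63, so every fold rests on that base. Depth has no meaning for arrays, and their number limits the precision.

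Of 33297 rows of values, 19460 had a single gene symbol in the platform annotation, 1754 had several and 12083 none. The row with the highest mean stood for each of 18417 genes, 769 of which had more than 1 row. Groups came from the sample titles, and 0 columns were unused. Arrays of 1 group correlated from 0.979 to 0.996. A linear model with 18 group means and 36 residual degrees of freedom was fitted with limma 3.58.1 in R 4.3.3 (eBayes with an intensity trend; files read with version 1.17.8 of data.table). P-values are two-sided, Benjamini-Hochberg adjusted over all genes of each of 42 comparisons, and a gene passed at an adjusted p under 0.05. They measure the spread between the labelled biological replicates, which came from wells of plates that were not given, so plate could not be tested.

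The 8 genes, the lists and the tests were chosen with earlier results of these data known. All 8 genes were described in every group. From a list, at most the 4 genes with the largest absolute change among those that passed were named in a comparison, other genes only where their naming is explained, and 5 like genes were given for genes spanning at least 1.

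The procedure was tested on simulated data before use, with independent noise on each array and no shift of whole arrays. Changes of 0.5 were added to 100 genes, up or down, in smoke extract with radiation at 24 h. The test recovered 79% of them within radiation, 47% as the interaction and 16% in the average over therapies. For changes of 1 in 100 other genes these shares were 100%, 96% and 76%. Alternatives were quantile normalization, the silent-gene mean as a covariate, no intensity trend, all rows, mean of rows, only the compared groups, genes above the median level, the replicate block, omission of 4 arrays and omission of each array.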

Additional observations from a re-analysis of the deposited data

Results flagged for a closer look

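The effect of smoke extract, averaged over therapies, differed between the harvest times for 3 genes. It was 0.92 larger at 24 h than at 2 h for IL1A and 0.88 larger for IL1B, values that hold the smoke extract groups already singled out for both genes and are given with no p. For IL1RAP it was smaller at 24 h, by a difference of -0.78 (limma, adjusted p = 4.06e-05), since the gene was higher with smoke extract at 2 h and not at 24 h.

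The radiation effect on IL1B, averaged over pretreatments, was 0.40 larger at 24 h than at 2 h (limma, adjusted p = 0.00701). The smoke extract effect on IL1B at 24 h was 0.69 larger with radiation than without therapy (limma, adjusted p = 0.045), and 0.39 (adjusted p = 0.203) without replicate 3 of smoke extract and radiation. Both differences hold smoke extract groups that had been singled out for IL1B, so their p-values are not independent of that choice.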

How the results depend on the processing

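The larger smoke extract effect on IL1B with radiation at 24 h (0.69) missed the threshold with all rows tested (0.69, adjusted p = 0.0653), with only the compared groups (0.69, adjusted p = 0.261) and without the 4 arrays that stood apart (0.35, adjusted p = 0.485). Over single omitted arrays it ran from 0.39 to 0.85, with adjusted p-values from 0.0104 to 0.203, and passed in 4 of 12. The fall of IL1R1 with radiation at 24 h missed it with only the compared groups (-0.20, adjusted p = 0.0883) and with the silent-gene mean as a covariate (-0.13, adjusted p = 0.0564), and ran from -0.25 to -0.15 over single omitted arrays, passing in 11 of 18. The nicotine difference of IL1RN at 24 h missed it with only the compared groups (0.24, adjusted p = 0.111), quantile normalization (0.19, adjusted p = 0.07) and the covariate (0.16, adjusted p = 0.121), and ran from 0.21 to 0.31 over single omitted arrays, passing in 8 of 18. So the count of genes passed with nicotine at 24 h was 0 in those 3 settings and from 0 to 1 over omitted arrays. Over omitted arrays the count stayed at 3 for smoke extract at 2 h and at 4 for smoke extract at 24 h, and ran from 2 to 4 for radiation at 24 h. The cause of these losses was not tested.

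The smoke extract effect averaged over therapies ran from 1.81 to 1.89 at 2 h and 2.73 to 2.87 at 24 h for IL1A, and from 0.63 to 0.67 and 1.41 to 1.58 for IL1B, over the alternatives other than omitted arrays. The effects on IL1RAP at 2 h (0.81 to 0.88), IL18 at 24 h (-0.50 to -0.33) and IL1RN at 24 h (0.18 to 0.27) passed in each alternative that tested the gene. Over all 336 results of the 8 genes, alternatives other than omitted arrays kept a call 336 times and lost it 23 times, and gained one 17 times. Single omitted arrays kept a call 543 times, lost it 45 times and gained one 9 times. No called value changed sign. Same-numbered arrays deviated together, with every pair's correlation over 0.1, in 3 of 25 single comparisons (pair correlations from -0.728 to 0.674), so the numbers were not taken as pairs. With the replicate block 43 of the 336 results passed, and 43 without it, the same 43 in both; IL1A with smoke extract at 24 h was 2.77 with the block. The filter on level left 2 of the 8 genes, IL1A and IL1R1. No alternative scaling moved the median of all genes by more than 0.05. For genes within the range of the silent genes the arrays limit what can be seen. With olfactory receptors alone as silent genes (361 genes) their range was 3.05 to 6.09. Counts of passed pathway genes moved by over 1.5 times with some settings: signalling genes with smoke extract at 24 h from 3 to 8 (5 as reported), targets with radiation from 2 to 4 at 2 h (2) and from 2 to 6 at 24 h (4), and targets with cisplatin at 24 h from 2 to 4 (4). With cisplatin at 24 h signalling genes ran from 0 to 4 (1) and processing genes from 0 to 3 (1). IL18R1 with smoke extract, IL37 with radiation and HAX1 with nicotine, each the single gene of its list that passed at 24 h, gave counts from 0 to 1, 1 to 2 and 0 to 1.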
